A study of Homo sapiens with 24 samples.

Results

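MIR17HG, the host transcript of the miR-17-92 microRNA cluster, was described together with 8 genes of the MYC network: MYC, MYCN, MYCL, PVT1, MAX, MXD1, MXI1 and MNT. The 9 genes were named as a list and matched by symbol to the gene identifiers of the count files, and 9 of 9 were found among 60605 genes. The data are poly(A) RNA sequencing of SBC-3, a small cell lung cancer line, in 24 libraries that form 8 groups of 3. Cells were transfected with 10 nM of an siRNA or an antisense oligonucleotide (ASO) and harvested at 72 h. The siRNA arm held a control siRNA (siCtrl, labelled WT), 2 siRNAs labelled as SFPQ knockdown (siSFPQ-2 and siSFPQ-3) and 2 labelled as NONO knockdown (siNONO-3 and siNONO-4). The ASO arm held ASO-Ctrl (also labelled WT) and 2 ASOs labelled as NEAT1 knockdown (ASO-NEAT1-1047 and ASO-NEAT1-1473). SFPQ and NONO are paired RNA- and DNA-binding proteins of the nuclear paraspeckle, and NEAT1 is the long noncoding RNA around which paraspeckles form. Nothing in the labels ties the 3 libraries of a group to independent cultures. The spread behind each p-value is that among these libraries and may be technical.

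MYC, MYCN and MYCL are related transcription factors that bind DNA as dimers with MAX and activate genes of growth and metabolism. MXD1, MXI1 and MNT compete for the same MAX partner and repress transcription, so the balance between the groups of proteins sets the output of the network. MIR17HG is a known MYC target, and PVT1 is a long noncoding RNA gene downstream of MYC, with which it is often co-amplified in tumours. Amplification of one MYC family gene is a well known feature of small cell lung cancer.

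Depth ran from 4243196 to 14886353 reads assigned to genes per library, with the lowest library in the siSFPQ-2 group. SFPQ RNA fell to 17.5% of siCtrl under the siSFPQ reagents and NONO RNA fell to 17.4% under the siNONO reagents. NEAT1 RNA did not pass the test in the ASO arm (log2 fold change -0.26, adjusted p = 1, edgeR), with 181.2 to 331.2 CPM in the 6 libraries labelled ASO-NEAT1 against 215.8 to 386.8 in ASO-Ctrl. These groups are therefore called by their labels. CPM are counts scaled to the depth of the library, with TMM factors. Of the neuroendocrine markers, INSM1 had 0 reads, NCAM1 3 and UCHL1 5 in all 24 libraries together, while SYP stood at 17.2 CPM and BEX1 at 44.4 CPM in siCtrl. YAP1, a marker of the non-neuroendocrine type of this tumour, stood at 407 CPM. The share of mitochondrial reads was 9.59 to 11.6% in the siSFPQ libraries against 7.63 to 9.07% in siCtrl. It was 7.975 to 8.438% in siNONO-3, 8.182 to 10.296% in siNONO-4 and 8.186 to 9.488% in ASO-Ctrl. In the groups labelled ASO-NEAT1-1047 and ASO-NEAT1-1473 it was 8.391 to 9.005% and 8.074 to 8.611%. The part of this share in the results was not tested. In bulk RNA, fewer cells carrying a transcript and less of it per cell cannot be told apart.

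The 6 mature microRNAs of the cluster are shown because they define what MIR17HG encodes and which microRNAs elsewhere share its seeds. Capitals mark the seed, bases 2 to 8 from the 5′ end. Sequences and positions are from RefSeq (GRCh38.p14), and all 6 lie on the plus strand of chromosome 13, between 91350618 and 91351382.
hsa-miR-17-5p: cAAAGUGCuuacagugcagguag
hsa-miR-20a-5p: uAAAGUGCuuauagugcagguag
hsa-miR-18a-5p: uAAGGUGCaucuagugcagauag
hsa-miR-19a-3p: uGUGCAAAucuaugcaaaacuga
hsa-miR-19b-3p: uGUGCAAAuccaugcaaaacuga
hsa-miR-92a-3p: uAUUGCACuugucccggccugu
The 6 sequences carry 4 seeds, with miR-17-5p and miR-20a-5p sharing one and miR-19a-3p and miR-19b-3p another. A paralogous cluster of 3 microRNAs sits in MCM7 on the minus strand of chromosome 7, and its members carry the seeds of miR-17-5p or miR-92a-3p.
hsa-miR-106b-5p: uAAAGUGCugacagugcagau
hsa-miR-93-5p: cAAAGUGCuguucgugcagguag
hsa-miR-25-3p: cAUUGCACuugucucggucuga
Mature microRNAs were not measured here, since the libraries hold poly(A) RNA. The hairpin genes MIR17, MIR18A, MIR19A, MIR20A, MIR19B1 and MIR92A1 had 0 reads in the 24 libraries. Each of them lies wholly inside an annotated MIR17HG exon, where a read fits both features, so these zeros do not describe the RNA. All results that follow are for the host transcript. The study asked how SFPQ acts on the transcription and the stability of such primary microRNA transcripts.

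In the control cells, MIR17HG and MYC were the most abundant of the 9 genes per length. MIR17HG stood at 24.9 ± 1.39 RPKM (SD, n = 3) in siCtrl, at the 95.8th percentile of genes with reads, and MYC at 18.1 ± 1.42, at the 94.0th. Their difference was larger than the spread of the libraries. MXD1 followed at 7.90 ± 1.07 RPKM and MAX at 5.23 ± 0.21. MXI1 at 2.62, MNT at 2.38 and PVT1 at 2.12 RPKM lay within each other's spread. PVT1 has 24957 annotated exon bases, the most of the 9 genes, so its low RPKM depends on the annotation. Without scaling to length it stood at 52.88 CPM in siCtrl, against 50.19 for MXD1. MYCL was at 0.871 ± 0.0896 RPKM. MYCN had 1 read in the 24 libraries, in a siCtrl library, and was not tested. The MYC family of this line was therefore read almost wholly as MYC RNA, with 20.8 ± 1.55 times as much MYC as MYCL per length in siCtrl.

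MIR17HG RNA (chromosome 13, 91347820 to 91354579, hg38, plus strand) was lowest in the siSFPQ libraries. The siCtrl libraries held 96.06, 87.93 and 97.7 CPM. The siSFPQ-2 libraries held 24.68, 32.99 and 18.78 CPM, and the siSFPQ-3 libraries 24.7, 24.92 and 25.3 CPM. The 6 siSFPQ libraries lay below the lowest of the other 18, which was 68.37 CPM. MIR17HG fell to 26.4% of siCtrl, a log2 fold change of -1.92 (95% interval -2.12 to -1.73, adjusted p = 5.79e-16, edgeR quasi-likelihood test with Benjamini-Hochberg adjustment over all genes tested). The siRNAs did not differ beyond their spread (siSFPQ-2 minus siSFPQ-3, log2 -0.02, interval -0.29 to 0.25).

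After NONO knockdown the MIR17HG libraries straddled the control. siNONO-3 held 99.01, 100.7 and 103.9 CPM, all above the highest siCtrl library, and siNONO-4 held 68.37, 82.26 and 81.77 CPM, all below the lowest. The mean of both reagents differed from siCtrl by a log2 of -0.09 (interval -0.28 to 0.10, adjusted p = 0.572, edgeR). The reagents differed from each other by a log2 of 0.39 (SE 0.11, adjusted p = 0.0197), a call that was lost on leaving out siNONO-4 replicate 1 (0.30, adjusted p = 0.144), siNONO-3 replicate 2 (adjusted p = 0.0669) or siNONO-3 replicate 3 (adjusted p = 0.086). The effect of SFPQ knockdown minus that of NONO knockdown was -1.84 (SE 0.09, adjusted p = 5.27e-17). Both effects share the siCtrl libraries, which cancel out of this difference.

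In the ASO arm, MIR17HG held 90.8, 87.95 and 93.63 CPM in ASO-Ctrl. The 6 libraries labelled ASO-NEAT1 ranged from 94.98 to 112.6 CPM with a median of 98.63, all above the ASO-Ctrl libraries. The log2 difference was 0.16 (interval -0.03 to 0.35) and did not pass the test (adjusted p = 1, edgeR).

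MYC RNA (chromosome 8, 127735434 to 127742951, plus strand) also fell after SFPQ knockdown, and more under one siRNA than the other. siCtrl held 75.33, 85.68 and 87.28 CPM. siSFPQ-2 held 25.58, 25.3 and 26.13 CPM, and siSFPQ-3 held 35.67, 31.92 and 45.66 CPM. No siSFPQ library reached 62.08 CPM, the lowest value among the other 18. MYC fell to 37.6% of siCtrl (log2 fold change -1.41, interval -1.62 to -1.20, adjusted p = 2.83e-12, edgeR). Taken alone, siSFPQ-2 gave a log2 fold change of -1.69 while siSFPQ-3 gave -1.13, a difference of -0.55 (SE 0.14, adjusted p = 0.0058). Without siSFPQ-3 replicate 3, its highest library, that difference was -0.40 and no longer called (adjusted p = 0.0604).

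MYC was not called after NONO knockdown, where the libraries ran from 79.01 to 104.4 CPM (log2 0.12, interval -0.09 to 0.32, adjusted p = 0.476). The SFPQ effect on MYC lay below the NONO effect (log2 -1.53, SE 0.09, adjusted p = 1.45e-14, edgeR). In the libraries labelled ASO-NEAT1 it ran from 62.08 to 97.28 CPM against 79.85 to 89.97 in ASO-Ctrl (log2 -0.08, interval -0.28 to 0.13). CASC11, an antisense gene, overlaps 4.23% of the MYC exon bases and had 197 reads in all libraries. Whether the counting used strand is not given in the sources used here.

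MYCL RNA (chromosome 1, 39895426 to 39902256, minus strand) was higher after SFPQ knockdown. siCtrl held 4.021, 4.908 and 4.299 CPM. siSFPQ-2 held 9.463, 6.944 and 8.394 CPM, and siSFPQ-3 held 10.26, 6.015 and 9.397 CPM, so the groups did not overlap. MYCL rose by a log2 of 0.95 (SE 0.21, adjusted p = 0.000199, edgeR) on 28 to 86 reads per siSFPQ library. The siNONO libraries ran from 2.36 to 5.407 CPM, 5 of 6 of them below the lowest siCtrl library, and did not pass the test (log2 -0.35, interval -0.79 to 0.09, adjusted p = 0.277). SFPQ and NONO effects on MYCL differed by a log2 of 1.30 (SE 0.17, adjusted p = 1.49e-07). Libraries labelled ASO-NEAT1 held 2.733 to 5.283 CPM against 3.997 to 5.826 in ASO-Ctrl.

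**Figure D1:**
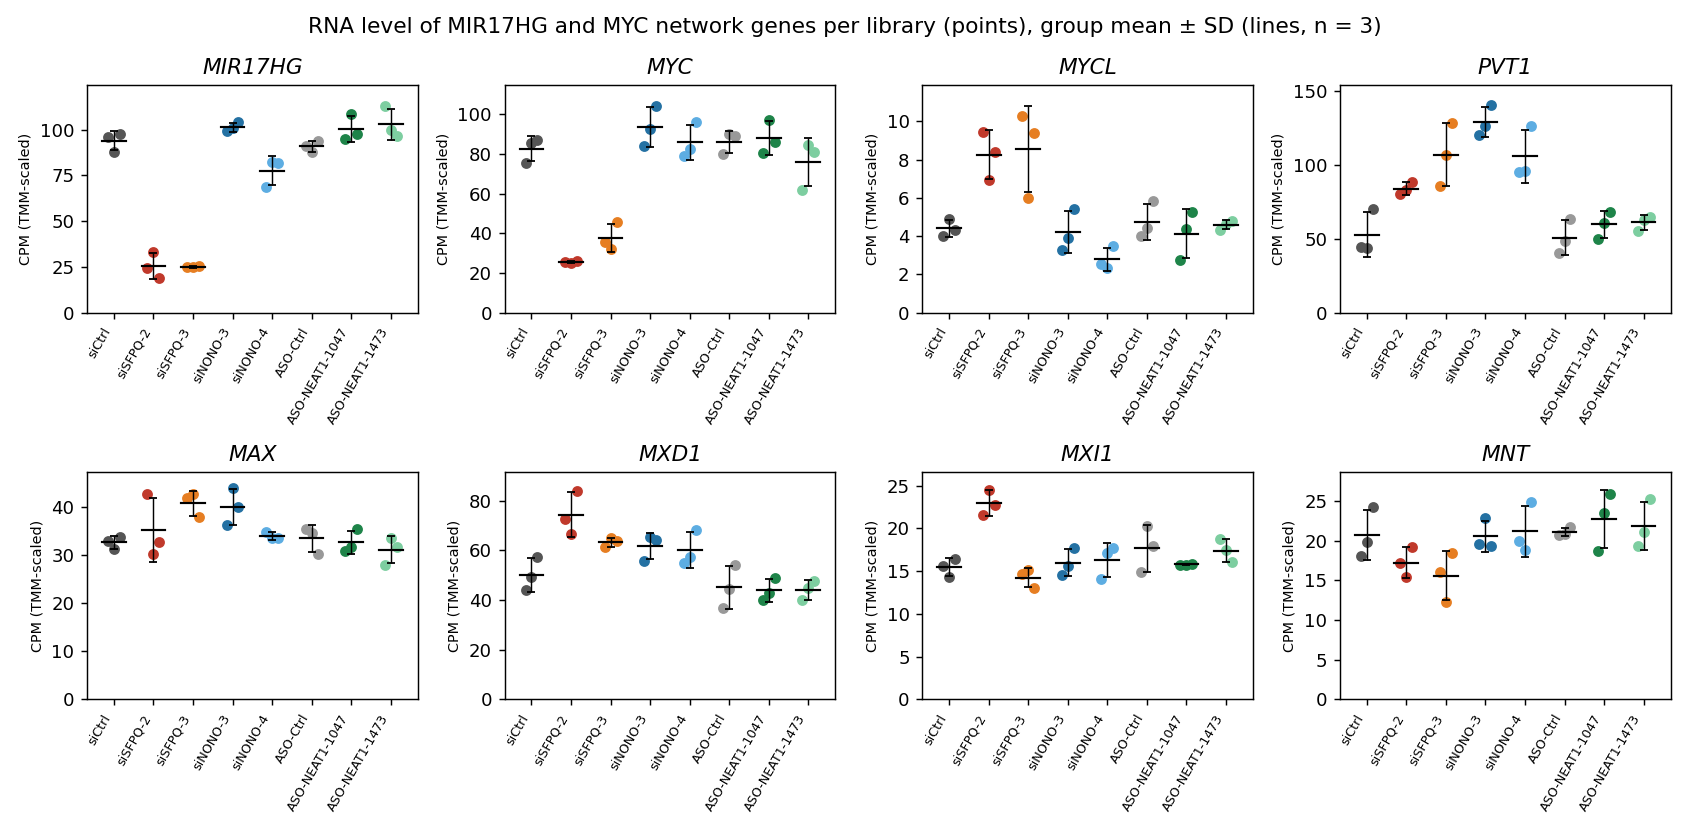
RNA level (CPM, vertical axes from 0) of 8 genes in each of the 24 libraries (points, 3 per group), with the group mean and SD as lines. MIR17HG and MYC sit low in both siSFPQ groups, at no more than 32.99 and 45.66 CPM, MYCL sits high there, and PVT1 sits high in the siSFPQ and siNONO groups, at 80.18 CPM or more.

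PVT1 RNA (chromosome 8, 127794526 to 128187101, plus strand), which starts 51.6 kb past the end of MYC, rose after both knockdowns of the siRNA arm. siCtrl held 44.23, 44.17 and 70.24 CPM. siSFPQ-2 held 80.18, 82.84 and 88.76 CPM, and siSFPQ-3 held 85.54, 106.9 and 128.4 CPM. siNONO-3 held 120.1, 126.7 and 140.4 CPM, and siNONO-4 held 95.25, 96.2 and 126.6 CPM. Every library of the 4 knockdown groups lay above the highest siCtrl library. PVT1 rose 1.78-fold after SFPQ knockdown (log2 0.84, SE 0.17, adjusted p = 0.000196) and 2.20-fold after NONO knockdown (log2 1.14, SE 0.17, adjusted p = 9.50e-05, edgeR). MYC and PVT1, neighbours on the same strand, thus moved in opposite directions after SFPQ knockdown, while after NONO knockdown PVT1 alone was called.

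The SFPQ effect on PVT1 was lower than the NONO effect by a log2 of -0.30 (SE 0.13, adjusted p = 0.0436), a call kept in 9 of 18 alternatives. The library numbered 3 held the highest PVT1 level of its group in 8 of 8 groups. It was also highest for MNT in 7 of 8 and for MXD1 in 6 of 8, and for the other tested members in 2 to 5. Within a replicate number, the log2 ratio of PVT1 in the siSFPQ libraries to siCtrl was 0.91, 1.09 and 0.60 for numbers 1, 2 and 3. That of PVT1 in the siNONO libraries was 1.27, 1.32 and 0.93. Libraries labelled ASO-NEAT1 ran from 50.22 to 68.49 CPM against 40.32 to 63.58 in ASO-Ctrl and did not pass the test (log2 0.26, interval -0.09 to 0.60). MIR1205, a microRNA gene within a PVT1 intron, had 4 reads in the siCtrl libraries together, 15 and 18 in siSFPQ-2 and siSFPQ-3, and 7 and 12 in siNONO-3 and siNONO-4. In the ASO arm it had 3 reads in ASO-Ctrl and 10 and 7 in the groups labelled ASO-NEAT1-1047 and ASO-NEAT1-1473. These counts were too low to test.

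The shared partner MAX (chromosome 14, 65006174 to 65102695, minus strand) and the repressors moved less. MAX held 32.97, 31.29 and 33.88 CPM in siCtrl, and its siSFPQ libraries ran from 30.26 to 42.84 CPM with a median of 39.92, overlapping the control. It rose by a log2 of 0.22 (SE 0.10, adjusted p = 0.0423, edgeR), but the call was lost in 10 of 15 alternatives, among them the leaving out of each siCtrl library in turn. By siRNA, MAX passed with siSFPQ-3 (0.32, adjusted p = 0.0122, edgeR) and not with siSFPQ-2 (0.12, adjusted p = 0.349). After NONO knockdown the log2 difference was 0.17 (interval -0.02 to 0.37, adjusted p = 0.219). FNTB, on the opposite strand, overlaps 13.14% of the MAX exon bases.

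MXD1 (chromosome 2, 69897688 to 69942945, plus strand), which encodes a repressive MAX partner, was higher after SFPQ knockdown. siCtrl held 43.87, 49.28 and 57.41 CPM. siSFPQ-2 held 72.38, 66.47 and 84.04 CPM, and siSFPQ-3 held 61.32, 64.94 and 63.61 CPM, so no siSFPQ library overlapped the control. MXD1 rose by a log2 of 0.45 (SE 0.11, adjusted p = 0.000588). The siNONO libraries ran from 54.98 to 68.33 CPM, overlapping siCtrl, and missed the threshold (log2 0.28, interval 0.06 to 0.50, adjusted p = 0.0741). The difference between the effects was 0.17 (adjusted p = 0.0738) and was not called. It was called in 3 of 18 alternatives, with RLE factors (adjusted p = 0.0302), with a replicate block (adjusted p = 0.00686) and without siNONO-4 replicate 3 (adjusted p = 0.0401).

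MXI1 (chromosome 10, 110207605 to 110287365, plus strand), another repressive MAX partner, separated the SFPQ siRNAs. siCtrl held 15.64, 14.31 and 16.39 CPM. siSFPQ-2 held 21.61, 24.55 and 22.77 CPM, all above the control, and siSFPQ-3 held 14.67, 15.1 and 13.01 CPM, overlapping it. The siRNAs differed by a log2 of 0.68 (SE 0.13, adjusted p = 0.000591, edgeR), and their mean differed from siCtrl by 0.22 (adjusted p = 0.075), which was not called. MNT (chromosome 17, 2384073 to 2401104, minus strand), a broadly expressed repressor of MYC targets, went the other way. siCtrl held 18.05, 19.84 and 24.19 CPM and the siSFPQ libraries 12.28 to 19.2 CPM with a median of 16.62, overlapping the control. MNT fell by 0.33 on the log2 scale (adjusted p = 0.0276, SE 0.13), and without siCtrl replicate 3 the value was -0.21 (adjusted p = 0.206). By siRNA, MNT passed with siSFPQ-3 (log2 -0.41, adjusted p = 0.0214, edgeR) and not with siSFPQ-2 (-0.25, adjusted p = 0.163). Neither gene was called after NONO knockdown, with log2 values of 0.06 for MXI1 and 0.01 for MNT. The SFPQ effect on MNT was below the NONO effect (log2 -0.34, SE 0.11, adjusted p = 0.0078).

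**Figure D2:**
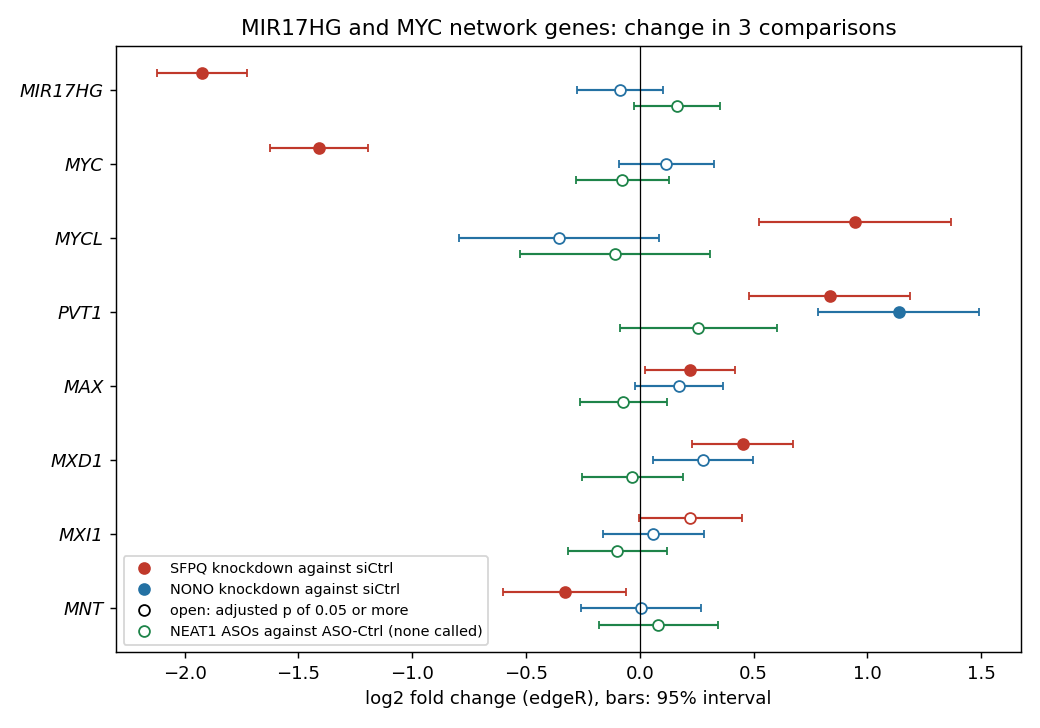
Log2 fold change from edgeR (horizontal axis) with its 95% interval for 8 genes in 3 comparisons, filled where the adjusted p is under 0.05. SFPQ knockdown moved MIR17HG (-1.92) and MYC (-1.41) furthest below 0, PVT1 (1.14) is the only filled point of NONO knockdown, and no point is filled for the ASOs.

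By count, 7 of the 8 genes tested were called after SFPQ knockdown, 4 higher and 3 lower. In that comparison 70.4% of all genes tested were called (34.7% higher, 35.8% lower), so a call by itself sets none of these genes apart. Their median log2 fold change was 0.22, against -0.02 over all genes tested. After NONO knockdown 1 of 8 was called, against 17.4% of all genes (7.47% higher, 9.96% lower), with a median of 0.09 against -0.004. In the ASO arm 0 of 8 were called, as were 0% of all genes by edgeR and by DESeq2, with 353 genes at an unadjusted p under 0.05. For the difference between the SFPQ and NONO effects, 5 of 8 were called against 75.4% of all genes. Between the SFPQ siRNAs 2 of 8 were called (background 14.7%), and between the NONO siRNAs 1 of 8 (background 10%). The controls of the arms differed in 0 of 8 (background 0.454%).

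The balance within the network was set out as ratios of length-scaled levels, given as descriptions with no test. MYC over the summed repressors (MXD1, MXI1, MNT, MXD3 and MXD4) was 1.23 ± 0.11 (SD, n = 3) in siCtrl, 0.279 ± 0.0155 in siSFPQ-2 and 0.49 ± 0.085 in siSFPQ-3. It was 1.24 in siNONO-3 and 1.1 in siNONO-4, and between 1.13 and 1.32 in the ASO arm. The summed repressors stood at 20.1 ± 1.46 RPKM in siSFPQ-2, above the siCtrl range of 13.5 to 17.1, and at 16.8 ± 0.306 in siSFPQ-3, within it. MYC over MYCL was 20.8 ± 1.55 in siCtrl, 3.48 ± 0.516 in siSFPQ-2 and 5.02 ± 1.05 in siSFPQ-3, and stood at 25.3 in siNONO-3 and 34.4 in siNONO-4. MYC remained above MYCL per length in all groups.

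PVT1 over MYC was 0.117 ± 0.0277 in siCtrl and 0.107 ± 0.0206 in ASO-Ctrl. It reached 0.6 ± 0.024 in siSFPQ-2 and 0.524 ± 0.0877 in siSFPQ-3, and 0.254 ± 0.00819 and 0.225 ± 0.015 in siNONO-3 and siNONO-4. The size of the PVT1 over MYC ratio depends on the annotated exon length of PVT1. MIR17HG over MYC was 1.39 ± 0.152 in siCtrl, 1.21 ± 0.355 in siSFPQ-2 and 0.821 ± 0.139 in siSFPQ-3. In siSFPQ-3 no library of this ratio reached the siCtrl range, while in siSFPQ-2 the ranges overlapped.

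**Figure D3:**
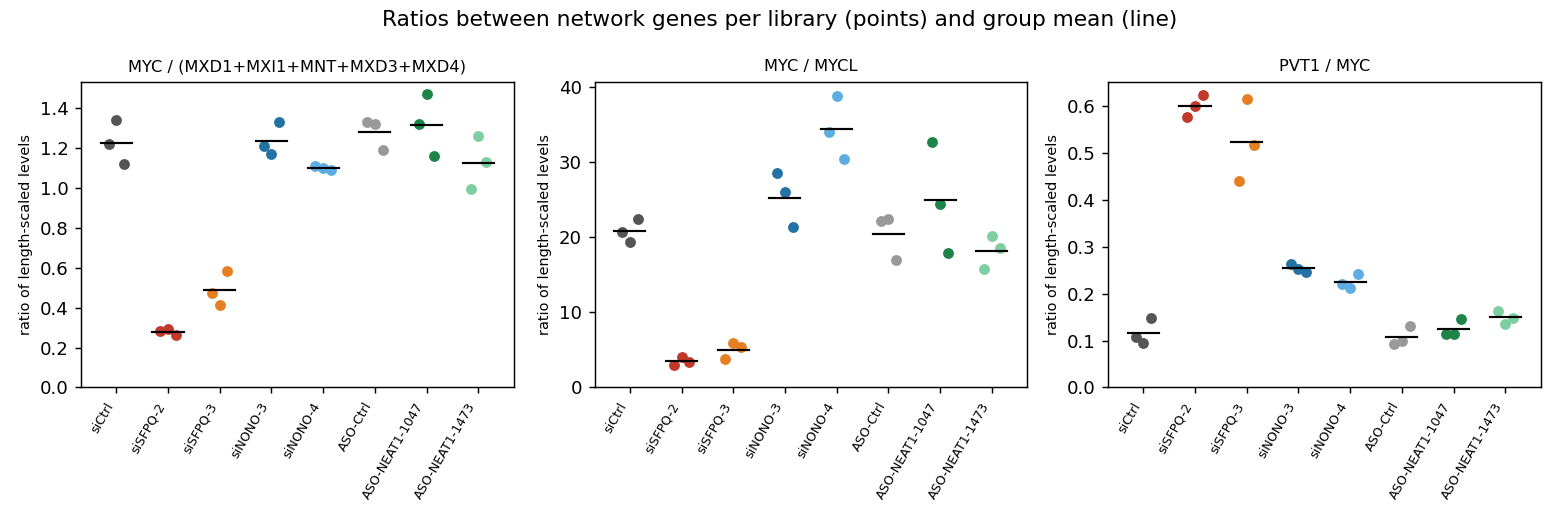
Ratios of length-scaled levels (vertical axes from 0) in each of the 24 libraries (points) with the group mean (line). MYC over its summed repressors and MYC over MYCL are lowest in the siSFPQ groups, and PVT1 over MYC is highest there (0.6 and 0.524) and intermediate in the siNONO groups (0.254 and 0.225).

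Of 6 other genes of the MYC, MAX and MLX network, 5 were tested, and 5 of 5 were called after SFPQ knockdown, 2 higher and 3 lower, against 70.4% of all genes. MXD3, a MAX partner made in dividing cells, fell by 1.48 on the log2 scale from a low level of 1.77 CPM. Of its exon bases, 22.27% overlap PRELID1 on the other strand. MXD4, a repressive MAX partner, rose by 0.58, and MGA, a MAX partner with a T-box, rose by 0.22. MLX, the partner shared by the glucose-sensing arm of the network, fell by 0.30 (log2 -0.30), and its partner MLXIP fell by 0.35. After NONO knockdown only MLX was called of the 5 (0.26, adjusted p = 0.0252, edgeR), a call lost in 6 of 15 alternatives and not made with either siRNA alone. MLXIPL was too low to test.

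Of 19 listed neighbours and partner transcripts, 3 had enough reads to test. POU5F1B, a retrogene 315.4 kb before MYC, went from 25.69 ± 2.19 CPM in siCtrl (SD, n = 3) to 1.968 ± 0.22 and 2.254 ± 0.222 in the siSFPQ groups. It fell by 3.59 on the log2 scale (adjusted p = 8.18e-18, edgeR, SE 0.15). After NONO knockdown it stood at 31.09 ± 3.36 CPM in siNONO-3 and 50.17 ± 5.02 in siNONO-4, and the mean of both was higher than siCtrl (log2 0.62, adjusted p = 0.000246). Taken alone, siNONO-4 passed the test (0.96, adjusted p = 6.34e-06) and siNONO-3 did not (0.27, adjusted p = 0.136). The siRNAs differed by a log2 of -0.69 (adjusted p = 0.000394, edgeR). Its sequence is nearly that of POU5F1 and it shares exon bases with PCAT1, so its reads are uncertain. GPC5, a cell surface proteoglycan gene 44.0 kb from MIR17HG, fell by 1.81 on the log2 scale after SFPQ knockdown from 2.977 CPM. CASC11 was not called (-0.63 after SFPQ and 0.50 after NONO knockdown).

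Genes that MYC activates, such as those of ribosome assembly, nucleotide synthesis and glycolysis, were mostly lower after SFPQ knockdown. Of 65 tested, 56 were lower and 3 higher, with a median log2 fold change of -0.65 against -0.02 over all genes tested, of which 35.8% were lower. With each siRNA alone, 57 were lower for siSFPQ-2 (background 32.4%) and 47 for siSFPQ-3 (background 33.3%). This list, like the others, was chosen with earlier results of these data known, which limits the comparison with the background. HK2, which starts glycolysis, fell by 2.19 on the log2 scale, and SLC19A1, a folate carrier, fell by 1.80. TERT, the telomerase catalytic subunit, fell by 2.48 from 0.922 CPM. ODC1 (0.40), of polyamine synthesis, IMPDH2 (0.37), of guanine nucleotide synthesis, and MPHOSPH10 (0.47), of ribosome assembly, were the 3 that rose.

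After NONO knockdown 13 of the 65 MYC-activated genes were higher and 0 lower, with a median of 0.11 and a background of 7.47% higher. With each siRNA alone, 17 were higher for siNONO-3 (median 0.21, background 9.02%) and 1 for siNONO-4 (median 0.06, background 5.1%), and 6 differed between the siRNAs, all higher in siNONO-3. The ribosome assembly genes RCL1 (0.47), WDR74 (0.42) and RRP12 (0.40) rose most, and of these RCL1 alone passed with siNONO-4. The count of 13 also moved with the control libraries: without siCtrl replicate 1 it was 8 higher, and without siCtrl replicate 3 it was 3 higher and 2 lower. In the ASO arm 0 were called.

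Of 17 tested genes that MYC represses, 9 rose and 6 fell after SFPQ knockdown, with a median of 1.02 and backgrounds of 34.7% and 35.8%. The share that fell was near its background. GADD45A, a growth arrest gene, rose by a log2 of 3.15, and CDKN2B, a cell cycle inhibitor, rose by 2.80 from 2.629 CPM. COL3A1, a fibrillar collagen, rose by 2.71 but had only 154 reads in the 24 libraries together. Whether it would pass the expression filter without the siSFPQ groups was not tested. CDKN2C (-1.52), another cell cycle inhibitor, CEBPA (-1.23), a differentiation factor, and COL1A2 (-1.09) fell. After NONO knockdown 3 rose and 4 fell (backgrounds 7.47% and 9.96%), with CDKN1A, the p53-induced cell cycle inhibitor, at 1.83 and GADD45A at 1.44. MYC RNA did not pass the test in that comparison (0.12). COL1A2 (1.97) rose and COL3A1 (-2.16), NDRG1 (-1.08) and CDKN1B (-0.46) fell. The COL3A1 fall (SE 0.71) rests on few reads, and COL3A1 did not pass with either NONO siRNA alone.

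**Figure D4:**
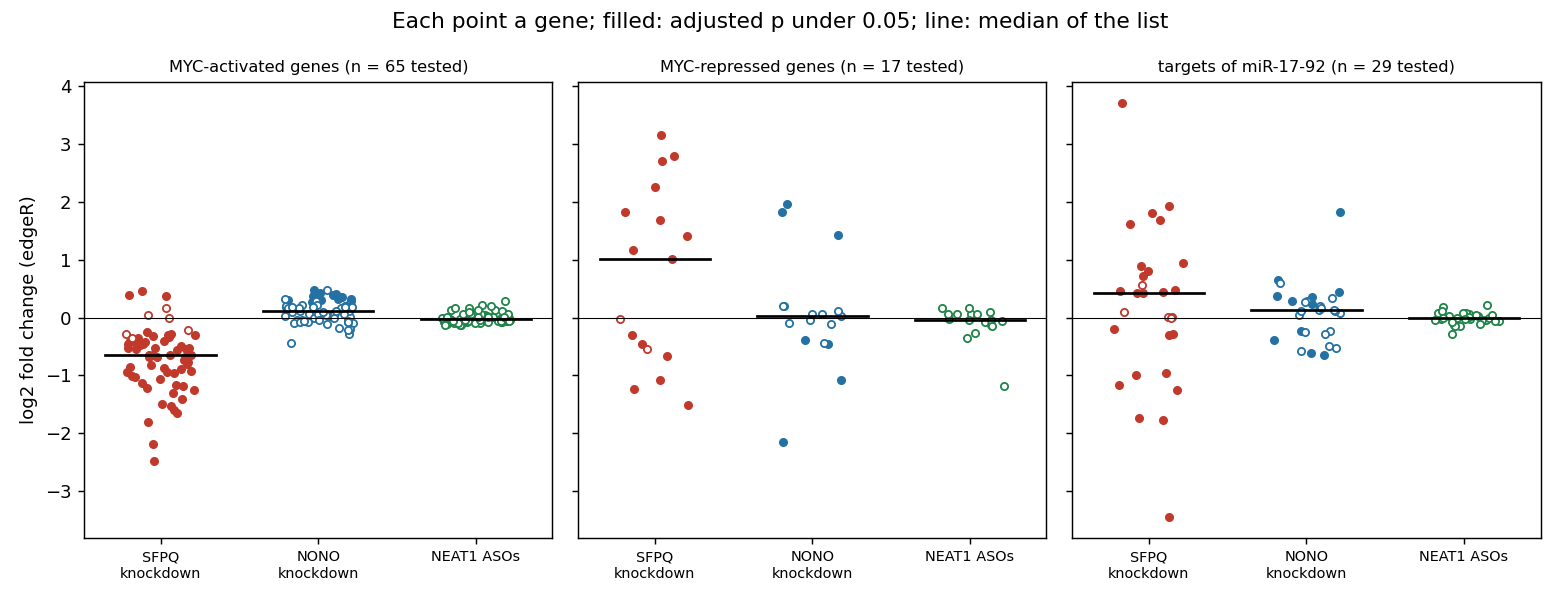
Log2 fold change from edgeR (vertical axis) of each tested gene of 3 lists (points, filled where the adjusted p is under 0.05) in 3 comparisons, with the median of the list as a line. MYC-activated genes lie mostly below 0 after SFPQ knockdown (median -0.65), while MYC-repressed genes and targets of miR-17-92 spread to both sides.

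The promoters of these genes were searched for the MYC and MAX binding motif CACGTG, which reads the same on both strands, in windows of 300 bases around the annotated starts (RefSeq, GRCh38.p14). Only the first window listed for a gene was searched, so any other start of the gene was left out. The motif was found in 7.43% of 27305 promoters and in 23 of 54 MYC-activated genes with an entry. After SFPQ knockdown 20 of the 23 with the motif were lower (median -0.57), as were 27 of the 31 without it (median -0.68). Among tested genes that had a promoter entry, 42.8% of the 1102 with the motif were lower and 38.0% of the 9937 without it. Of the members with an entry, 1 of 7 held the motif in its window, which was MNT. MYC and PVT1 had no entry. The MXD1 window (69914859 to 69915158) lay inside the gene, past the gene start given above. The MIR17HG window (91347437 to 91347736) ended before the gene start given above. A match is a description of the letters and not a bound site.

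Targets that miR-17-92 is known to repress went both ways after SFPQ knockdown, when its host transcript was lowest. Of 29 tested, 14 rose and 10 fell, with a median of 0.42 and backgrounds of 34.7% and 35.8%. TNFAIP3 rose by a log2 of 3.71 and CYLD by 1.93, both deubiquitinases that restrain NF-kB signalling, and STAT3, a cytokine-activated factor, rose by 1.80. BCL2L11, a pro-apoptotic gene, rose by 0.43. BCL2L11 was named here after its values were seen. CDKN1A, E2F1, E2F2 and E2F3 belong to this list as well as to another one described here.

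BMPR2, a BMP receptor, fell by 3.45 on the log2 scale after SFPQ knockdown, APP, the amyloid precursor, by 1.77 and NCOA3, a nuclear receptor coactivator, by 1.74. After NONO knockdown, where MIR17HG was not called, 7 targets rose and 4 fell (median 0.13, backgrounds 7.47% and 9.96%), with CDKN1A at 1.83 and CYLD at 0.64 among those that rose. TGFBR2 (-0.64), a TGF-beta receptor, BMPR2 (-0.61) and APP (-0.39) fell. BMPR2 passed with each NONO siRNA, TGFBR2 with siNONO-3 only and APP with siNONO-4 only.

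MCM7, a subunit of the replicative helicase and host of the paralogous cluster, fell by 0.53 on the log2 scale after SFPQ knockdown, but through 1 siRNA only. It stood at 146.6 ± 14.7 CPM in siCtrl (SD, n = 3), 69.25 ± 17.8 in siSFPQ-2 and 149.9 ± 10.8 in siSFPQ-3, and the siRNAs differed by a log2 of -1.13 (adjusted p = 1.94e-05, edgeR). E2F1 and E2F2, cell cycle factors in mutual regulation with the cluster, fell by 1.26 and 1.17 on the log2 scale. Both were lower in siSFPQ-2 than in siSFPQ-3, by 1.27 (log2 -1.27) and 1.23 (log2 -1.23). E2F3 was not called (0.02). None of the 4 genes was called after NONO knockdown. E2F2 came nearest (log2 -0.57, adjusted p = 0.0508, edgeR) and was called lower in 5 of 15 alternatives (adjusted p 0.0163 to 0.202 over the 15).

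Proteins that work with MYC or turn it over were mixed. Of 16 MYC cofactors 5 rose and 3 fell after SFPQ knockdown (median 0.06), where 34.7% of all genes rose and 35.8% fell, so the list was called no more often than genes in general. The elongation factor SUPT5H rose by a log2 of 1.28, ZBTB17, through which MYC represses, by 0.62 and the elongation kinase CDK9 by 0.54. MYCBP, a MYC-binding protein, fell by 1.62, WDR5 by 0.73 and HCFC1 by 0.21. After NONO knockdown 1 was called, SUPT5H (0.24), which passed with siNONO-4 alone and not with siNONO-3. Of 10 corepressors of MXD and MNT proteins 4 rose and 4 fell after SFPQ knockdown (median 0.10), near the 70.4% called over all genes, with HDAC1 at 0.71, SIN3A at 0.35 and NCOR1 at 0.19 higher. SAP30 (-0.78) and RBBP7 (-0.23) were among those lower. After NONO knockdown RBBP7 (-0.30) alone was called, against a background of 17.4%, and it passed with siNONO-3 but not with siNONO-4.

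Of 16 genes of MYC protein turnover 6 rose and 7 fell after SFPQ knockdown, with a median of -0.10, near the backgrounds of 34.7% and 35.8%. FBXO32, a ubiquitin ligase subunit, rose by a log2 of 3.65, PPP2R5A, a phosphatase subunit, by 1.62 and the deubiquitinase USP28 by 1.10. BTRC (-2.78), SKP2 (-1.37) and STUB1 (-0.96), all of ubiquitin ligases, fell. FBXW7, the ligase subunit that marks phosphorylated MYC, rose by 0.88 after SFPQ knockdown and by 0.23 after NONO knockdown, where BTRC (0.22) was the other call. Both passed with siNONO-3 and not with siNONO-4. STUB1 shares 42.49% of its exon bases with JMJD8 on the other strand. MYC protein was not measured.

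Genes most like MIR17HG were sought among 11270 genes by the root mean square difference of the 8 group means of log2 CPM, each gene centred on its own mean. The closest were BORCS5 (0.09), VTI1A (0.10), CAMK4 (0.11), MAGI1 (0.11) and SDHAF3 (0.11), with SFPQ log2 fold changes from -2.08 to -1.82. A difference under 0.25 was met by 344 genes. The closest to MYC were CPT2 (0.05), ATP5MK (0.06), POLR3K (0.08), QSOX2 (0.08) and LYAR (0.08), and 571 genes came under 0.25. These values describe likeness over 8 groups that share libraries and controls.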

How the data were processed

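The authors deposited raw counts per gene, 1 file per library. The build was hg38, and cutadapt 4.2, STAR 2.7.5a, Subread 2.0.3 with featureCounts and DESeq2 1.38.1 were named, per the submitters' processing notes. Not given in the sources used here are the strand setting, the annotation release and the handling of reads that fit more than 1 feature. Symbols were matched for 60463 of 60605 gene identifiers. The deposited counts of all 24 libraries were fitted together with edgeR 4.0.16 (R 4.3.3, TMM factors 0.949 to 1.045, filterByExpr with a minimum count of 10, leaving 15869 genes, quasi-likelihood test, Benjamini-Hochberg adjustment, threshold 0.05). A comparison takes the mean of the 2 reagents of a target against its arm's control. RPKM divides CPM by exon length in kb. The test was also run on simulated counts with few changed genes and no effect of the replicate number. These data differ in both respects, so that run does not check the test for them. DESeq2 1.42.0, RLE and upper quartile factors, no filter, 1 arm alone, a replicate block and leaving out each library were alternatives. Replicate numbers paired the libraries of the ASO arm: 9 of 9 same-numbered pairs deviated together (r 0.179 to 0.487), where the labels give only a number. The main fit left the number out in both arms, and only the replicate block took it in. No pair of libraries was a duplicate, with at most 2.839% of genes identical. Members and lists were chosen with earlier results of these data known. All 9 genes, the other network genes, E2F activators, MCM7 and measured neighbours were named, and from other lists up to 3 genes that rose and 3 that fell most. Likeness used a pseudocount of 0.5 CPM and genes at 5 CPM or more in a group. Some genes that the naming rule or the marker list covers are not reported here. Low counts limit what can be said of MYCN, MIR1205 and COL3A1.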

Additional observations from a re-analysis of the deposited data

Results flagged for a closer look

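The effects of SFPQ and NONO knockdown differed by the test of the difference itself (edgeR, all adjusted over all genes tested, of which 75.4% were called) for 5 genes. The differences, SFPQ minus NONO on the log2 scale, were -1.84 for MIR17HG, -1.53 for MYC, 1.30 for MYCL, -0.34 for MNT and -0.30 for PVT1. For MIR17HG, MYC and MYCL, no siSFPQ library overlapped the siNONO libraries. How common such a separation is among all genes, here or against a control, was not counted, so it sets none of these genes apart. The PVT1 difference was lost in 9 of 18 alternatives.

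Among the 8 tested genes of the MYC network and MIR17HG, reagents against one target differed in 3 cases. siSFPQ-2 minus siSFPQ-3 was -0.55 for MYC and 0.68 for MXI1, where 14.7% of all genes were called. siNONO-3 minus siNONO-4 was 0.39 for MIR17HG, where 10% of all genes were called. The MYC call was lost in 1 of 12 alternatives and the MIR17HG call in 3 of 12, while the MXI1 call was kept in 12 of 12.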

How the results depend on the processing

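After SFPQ knockdown the calls of MIR17HG (-2.03 to -1.83), MYC (-1.52 to -1.37), MYCL (0.86 to 1.04), PVT1 (0.71 to 1.09) and MXD1 (0.35 to 0.55) were kept in 15 of 15 alternatives. The PVT1 call after NONO knockdown was also kept in 15 of 15 (1.03 to 1.39). MAX lost its SFPQ call in 10 of 15 and MNT in 3 of 15. MXI1 gained one with RLE factors (0.25, adjusted p = 0.044). The cause was not tested.

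Without an expression filter, 3 of all genes were called in the ASO arm, and leaving out 1 library gave 0 to 19 of all genes there, with 19 without ASO-Ctrl replicate 3. After NONO knockdown, leaving out 1 library gave 1661 to 2700 of all genes (2767 with all) and 1 to 2 of the members, the added member being MXD1 without siCtrl replicate 3 (0.37, adjusted p = 0.0342). The lowest count of all genes, 1661, came without siCtrl replicate 1.

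In the siRNA arm, 22 of 30 same-numbered pairs of libraries correlated over 0.1 (-0.043 to 0.376, median 0.173). The median for libraries of different numbers was -0.092. Libraries of the same number thus tended to deviate together in this arm too, and the main fit held no term for the number. With a replicate block, NONO knockdown called 4262 of all genes and 2 members, MXD1 joining PVT1 (0.28, adjusted p = 0.00292). MYC-activated genes then gave 24 calls after NONO knockdown instead of 13, and targets of miR-17-92 gave 17 instead of 11. The block ended no call of a member after SFPQ knockdown and called 0 members in the ASO arm. It also called the differences between reagents of PVT1 (-0.34 for SFPQ, 0.29 for NONO) and MXD1 (0.24 for SFPQ). Counts of cofactors, corepressors and turnover genes called after NONO knockdown (1, 1 and 2) ran from 0 to 4 over the alternatives. Depth limits MYCL (22 to 86 reads per library) most among the tested members.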
